A study of Mus musculus with 12 samples.

Results

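The genes described here are the guidance genes of the epidermis: the Eph receptors and ephrins, the semaphorins of classes 3 to 7, the plexins and neuropilins, Slits and Robos, Unc5 receptors and netrins. They were taken by gene symbol, and 67 of the 17853 genes measured belonged to them. Nrp2 had probe sets only in common with another gene and was not analysed here. The 67 genes had 4 to 46 probe sets each (median 21), 1520 in all.

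These proteins were first studied as cues that steer growing axons, and epithelia use the same pairs to sort, space and hold cells. Ephrins are ligands tied to the membrane of one cell, and Eph receptor tyrosine kinases bind them on the next, so that both cells receive a signal. Secreted class 3 semaphorins mostly bind a neuropilin that holds a plexin, whereas membrane-bound semaphorins bind plexins directly. Slits are secreted and bind Robo receptors, and netrins are secreted and bind Dcc, neogenin and Unc5 receptors.

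Expression was measured on 12 exon arrays, 3 replicates for each of 4 populations sorted from the telogen back skin epidermis of female mice with a Gata6-mTomato reporter on a C57BL6/CBA background. Telogen is the resting phase of the hair cycle. Gata6+Itga6- cells had the red reporter and lacked surface integrin alpha 6, the partner of integrin beta 4 in the anchors of basal keratinocytes. Gata6+Itga6+ cells had both. CD34+ cells had CD34, a marker of hair follicle bulge stem cells in mouse, together with integrin alpha 6, and no reporter. Remaining basal cells had integrin alpha 6 and neither CD34 nor the reporter. All mice carried the reporter and were matched for age and sex; no age was given, and no wild-type mouse was among the samples. The labels call the replicates biological but do not say which animals they came from, so the p-values measure the spread between these arrays.

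Gata6 and Cd34 were highest in the populations sorted for them. Gata6 had mean log2 levels of 5.84 in Gata6+Itga6- cells, 4.39 in Gata6+Itga6+ cells, 2.84 in CD34+ cells and 2.73 in remaining basal cells, and Cd34 had 1.96, 1.78, 7.95 and 1.66 in the same order. Itga6 RNA was well over the silent level in all 4, also in the Gata6+Itga6- cells sorted as lacking the surface protein, with means of 6.02, 7.28, 6.76 and 7.67; the difference between Gata6+Itga6- and CD34+ cells was not called. All 6 basal keratinocyte markers were over the silent level in every population, but their summed intensity was 606 to 781 in Gata6+Itga6- cells, 1660 to 1760 in Gata6+Itga6+ cells, 1570 to 2030 in CD34+ cells and 1860 to 2340 in remaining basal cells. Upper follicle markers summed to 2350 to 2480, 857 to 1220, 59.7 to 92.0 and 48.5 to 90.9 in that order, and differentiated keratinocyte markers to 1880 to 2010, 1270 to 1710, 398 to 656 and 841 to 1160. A sum is set mostly by its brightest genes. In the differentiated list Krt1 went against the sum, with mean log2 levels of 4.77, 7.0, 3.03 and 7.15. Krt10 (9.61, 9.5, 6.9 and 9.3), Sbsn (9.61, 8.57, 8.29 and 6.65), Krtdap, Lor and Ivl were highest in Gata6+Itga6- cells. All 7 bulge markers were over the silent level in CD34+ cells, against 4 in each other population, and summed to 797 to 1020, 969 to 1100, 2000 to 2280 and 830 to 1000. The 4 were Krt15, Lhx2, Sox9 and Nfatc1. Krt15 had mean log2 levels of 9.63, 9.87, 9.94 and 9.78 in that order. Lhx2 had 5.67, 5.16, 8.41 and 2.57, Sox9 had 5.34, 4.95, 5.66 and 2.81, and Nfatc1 had 4.27, 4.27, 4.72 and 2.62. These last genes were thus close to the silent level in remaining basal cells and well over it in both Gata6+ populations. Of 10 endothelial markers, 0 or 1 was over that level in a population, and their summed intensity was 23.9 to 29.8 on all arrays. Fibroblast markers summed to 27.6 to 29.8 in Gata6+Itga6- cells, 26.0 to 28.1 in Gata6+Itga6+ cells, 41.5 to 61.2 in CD34+ cells and 32.7 to 56.3 in remaining basal cells. In CD34+ cells 4 of the 10 were over the silent level, with mean log2 levels of 4.24 for Fbln1, 2.89 for Col1a2, 2.83 for Col1a1 and 2.54 for Thy1, and in remaining basal cells Thy1 alone (3.88); in both Gata6+ populations 0 of 10 were, and Dcn, Lum, Pdgfra and Col3a1 were under that level in all 4. Melanocyte markers summed to 26.8 to 34.2, 29.2 to 33.3, 70.2 to 76.4 and 21.3 to 23.8 in that order; Mitf had a mean log2 level of 5.77 in CD34+ cells, and Dct, Tyr and Tyrp1 were under the silent level in all 4. Schwann and neural markers, of which 2 to 4 of 9 were over the silent level, summed to 34.4 to 36.0, 35.3 to 39.5, 31.1 to 35.6 and 37.6 to 45.9 in that order. Immune markers summed to 31.5 to 43.5, 23.4 to 28.1, 23.9 to 33.9 and 27.4 to 56.8, with 2 of 9 over the silent level in Gata6+Itga6- cells (H2-Aa 3.38, Cd3e 2.73) and Thy1 in CD34+ and remaining basal cells. The part of these cell types and keratinocyte states in the differences below was not tested.

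A level below is the log2 of intensity plus 1, taken as the median over a gene's probe sets. Probe sets differ in how brightly they bind, so levels are compared between populations and never between genes. Genes at or under 2.46, the 95th percentile of the population means of 1144 olfactory and vomeronasal receptor genes, are called silent here, and a fold against a silent mean was computed from 2.46 and given as at least that value. Adding 16 in place of 1 shrank 48 of the 59 called changes by over 1.5 times, so folds depend on the number added. A change was called at an adjusted p under 0.05 in limma over all 17853 genes. The arrays measure bulk populations, in which fewer cells of a type and less RNA per cell cannot be told apart.

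Of the 67 genes, 31 (46.3%) were silent in all 4 populations, beside 8745 (49.0%) of all genes. Another 18 were over the silent level in every population and 18 in some. In total 20 genes were called in at least 1 of the 6 comparisons and 47 in none; of all genes, 12.1% were called in at least 1. Among the 20, the highest mean was in Gata6+Itga6- cells for 8, in CD34+ cells for 7, in remaining basal cells for 5 and in Gata6+Itga6+ cells for 0.

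In Gata6+Itga6- cells 6 guidance genes were higher and 8 lower than in CD34+ cells, or 20.9% of the 67, where 7.96% of all genes were called. Over remaining basal cells, Gata6+Itga6- cells had 9 higher and 4 lower, or 19.4%, where 5.11% of all genes were called. Over Gata6+Itga6+ cells, Gata6+Itga6- cells had 3 higher and 4 lower, or 10.4%, where 3.18% of all genes were called. In Gata6+Itga6+ cells 3 were higher and 3 lower than in CD34+ cells, or 8.96%, beside 4.59% of all genes. In Gata6+Itga6+ cells 6 were higher and 2 lower than in remaining basal cells, or 11.9%, beside 1.36% of all genes. In CD34+ cells 7 were higher and 4 lower than in remaining basal cells, or 16.4%, beside 5.00% of all genes. The median log2 change of the 67 genes lay between -0.02 and 0.03 in the 6 comparisons, and that of all genes between -0.03 and 0.04. In all 59 called changes the 3 replicates of one population lay apart from the 3 of the other. The call itself selects for such separation, so this adds nothing to the calls. The share over all called genes was not computed. The guidance genes were chosen with earlier results of these data known, so their called shares are no test of an excess over all genes.

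With array brightness as a covariate, Gata6+Itga6+ over CD34+ cells had 2 higher and 6 lower, where all genes had 487 and 492, against 429 and 390 without it. That split was 3 and 5 after quantile normalization (all genes 445 and 456), and 0 and 4 with pseudocount 16 (all genes 296 and 346) or without CD34+ replicate 1 (all genes 251 and 356). For Gata6+Itga6+ over remaining basal cells the covariate gave 2 and 2 (all genes 79 and 48, against 191 and 51 without it). For Gata6+Itga6- over Gata6+Itga6+ cells it gave 3 and 1 (all genes 183 and 187, against 208 and 359), and for CD34+ over remaining basal cells 5 and 5 (all genes 435 and 432, against 593 and 299). Pseudocount 16 gave 1 and 2 for Gata6+Itga6+ over remaining basal cells (all genes 109 and 42) and 4 and 1 for Gata6+Itga6- over Gata6+Itga6+ cells (all genes 186 and 210).

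Some counts of called guidance genes depended on single arrays, and the shares of all genes called in the same fits are given beside them. For Gata6+Itga6+ over remaining basal cells the 8 calls became 4 without Gata6+Itga6+ replicate 1, where 0.818% of all genes were called, or without remaining basal replicate 2 (0.734%). They became 5 without Gata6+Itga6- replicate 1 (1.14%), Gata6+Itga6+ replicate 2 (1.10%) or 3 (0.779%), CD34+ replicate 1 (1.22%), 2 (1.17%) or 3 (1.27%), or remaining basal replicate 1 (0.767%). The 7 calls of Gata6+Itga6- over Gata6+Itga6+ cells became 4 without Gata6+Itga6- replicate 1 (1.82% of all genes) or Gata6+Itga6+ replicate 2 (2.09%).

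**Figure D1:**
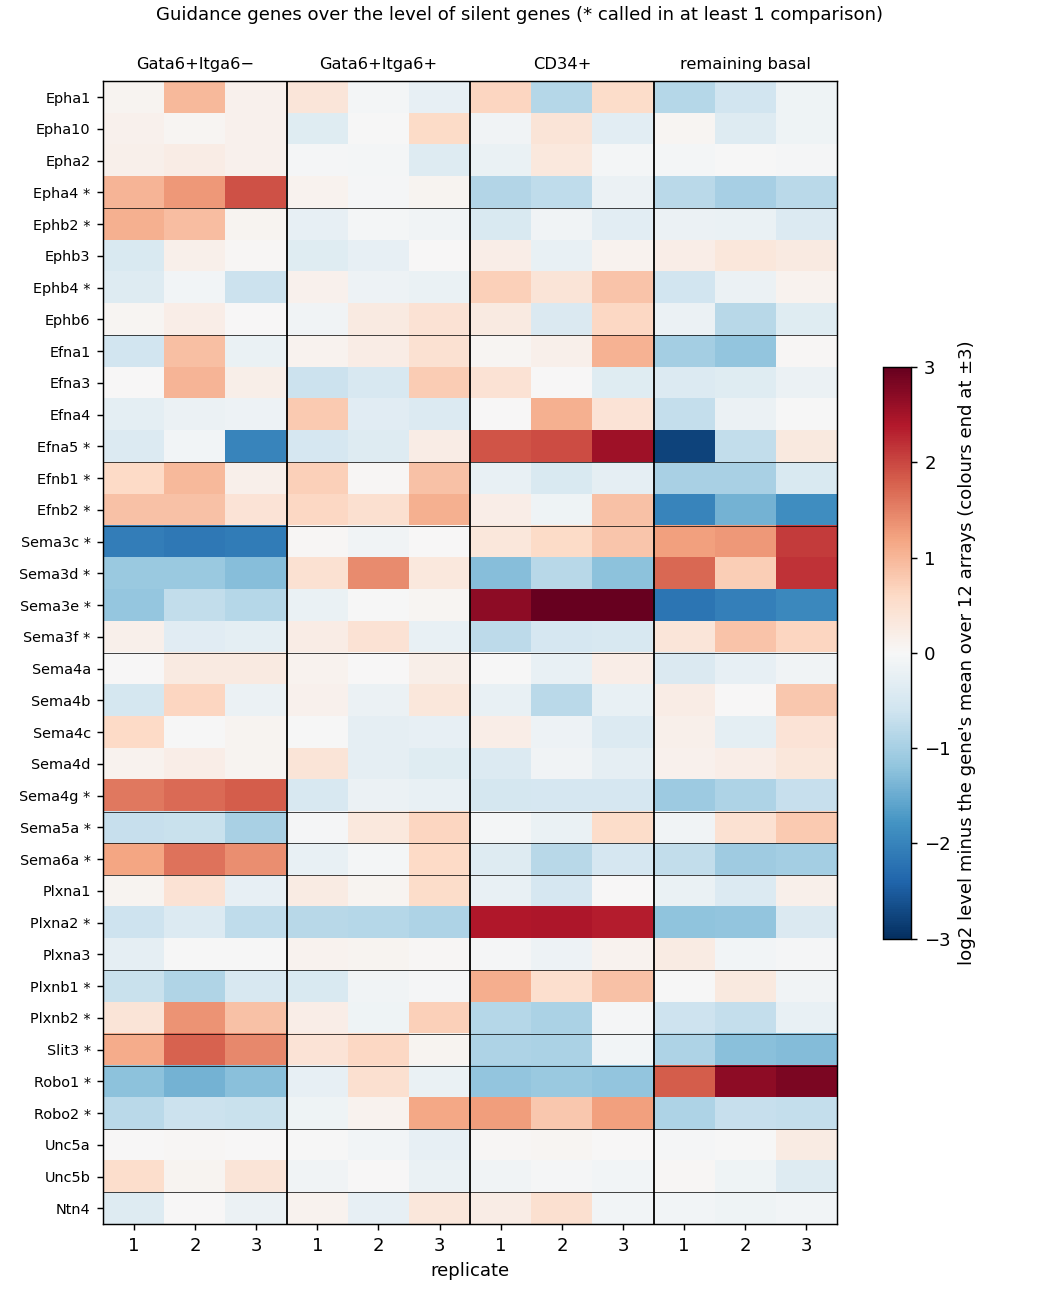
Log2 level minus the gene's mean over the 12 arrays (colour) for the 36 guidance genes over the silent level in at least 1 population, one row per gene and one column per array, grouped by population; an asterisk marks a gene called in at least 1 comparison. Red is above and blue below the mean: Sema4g, Sema6a and Epha4 are red in the Gata6+Itga6- columns, Sema3e and Plxna2 in the 3 CD34+ columns and Robo1 in the remaining basal columns.

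Promoters of genes with contrasting patterns are shown over 300 bases around the annotated start, most of them before it, from RefSeq on GRCm38.p6, with any GATA motif in capitals. The motif, searched on both strands, was AGATAA or its variants, in which the first base may also be T and the last may also be G, the letters that GATA factors are known to bind. Sema3e and Plxna2 were highest in CD34+ cells, Sema4g in Gata6+Itga6- cells and Robo1 in remaining basal cells.

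Sema3e (chr5:14025026-14025325, plus strand): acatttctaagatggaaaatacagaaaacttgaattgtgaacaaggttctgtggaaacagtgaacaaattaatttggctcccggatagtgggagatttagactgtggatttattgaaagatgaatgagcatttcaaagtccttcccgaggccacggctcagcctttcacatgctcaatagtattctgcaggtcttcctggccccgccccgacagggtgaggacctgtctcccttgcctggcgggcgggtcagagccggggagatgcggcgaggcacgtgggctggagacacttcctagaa

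Plxna2 (chr1:194619579-194619878, plus strand): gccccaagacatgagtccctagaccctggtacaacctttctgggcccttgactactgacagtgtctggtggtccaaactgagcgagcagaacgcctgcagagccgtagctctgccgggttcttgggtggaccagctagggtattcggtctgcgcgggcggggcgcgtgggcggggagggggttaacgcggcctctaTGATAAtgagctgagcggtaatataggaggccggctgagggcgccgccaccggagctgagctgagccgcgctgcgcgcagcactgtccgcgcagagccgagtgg

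Sema4g (chr19:44989094-44989393, plus strand): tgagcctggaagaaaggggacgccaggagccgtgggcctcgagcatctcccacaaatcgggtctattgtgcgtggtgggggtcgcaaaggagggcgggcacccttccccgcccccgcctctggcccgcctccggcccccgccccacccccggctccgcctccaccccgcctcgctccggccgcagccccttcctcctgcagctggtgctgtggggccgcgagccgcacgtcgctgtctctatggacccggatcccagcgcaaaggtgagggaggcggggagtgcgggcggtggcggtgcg

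Robo1 (chr16:72662899-72663198, plus strand): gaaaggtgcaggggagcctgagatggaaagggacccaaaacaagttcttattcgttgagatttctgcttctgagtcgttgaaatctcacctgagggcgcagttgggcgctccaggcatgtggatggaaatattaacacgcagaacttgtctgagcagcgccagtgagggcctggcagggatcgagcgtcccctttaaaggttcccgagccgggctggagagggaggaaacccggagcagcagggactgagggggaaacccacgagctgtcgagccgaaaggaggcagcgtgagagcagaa

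Of these, the Plxna2 window holds the motif once, as TGATAA, and the others not at all. GC content is 50.7% for Sema3e, 64.7% for Plxna2, 73.3% for Sema4g and 57.0% for Robo1. The motif was in 2 of 21 promoters of the called genes (9.52%; 18 genes matched) and 10 of 74 of all the guidance genes (13.5%; 58 matched), against 9778 of 32851 promoters (29.8%). The median GC content was 64.7%, 64.2% and 52.7% in these sets, and a match or its absence in 300 bases says nothing of binding.

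Among the ephrins, the membrane-bound ligands, Efnb1 and Efnb2 of the B class were lowest in remaining basal cells, and Efnb3 was silent. Efnb2, the ligand of EphB4 and other EphB receptors, had log2 levels of 7.89, 7.90 and 7.43 in Gata6+Itga6- cells, 7.63, 7.49 and 8.08 in Gata6+Itga6+ cells, 7.23, 6.88 and 7.89 in CD34+ cells and 5.04, 5.61 and 5.16 in remaining basal cells. All 9 arrays of the other populations were above the 3 of remaining basal cells. It was 5.53-fold higher in Gata6+Itga6- cells (log2 change 2.47 ± 0.27 (SE), adjusted p = 0.000399), 5.51-fold in Gata6+Itga6+ cells (2.46 ± 0.27, adjusted p = 0.00152) and 4.17-fold in CD34+ cells (2.06 ± 0.27, adjusted p = 0.00126), each over remaining basal cells. In each of the 3 comparisons 10 of its 13 probe sets were called higher one by one.

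Efnb1 had log2 levels of 4.98, 5.35 and 4.53 in Gata6+Itga6- cells, 5.10, 4.42 and 5.25 in Gata6+Itga6+ cells, 4.17, 3.93 and 4.12 in CD34+ cells and 3.41, 3.41 and 3.92 in remaining basal cells. Both Gata6+ populations lay above remaining basal cells on all arrays. The differences were 2.59-fold for Gata6+Itga6- (adjusted p = 0.0115) and 2.54-fold for Gata6+Itga6+ cells (adjusted p = 0.0355). For Efnb1 in Gata6+Itga6+ cells the call was lost in 8 of the 12 fits without 1 array, with an adjusted p of up to 0.144 without Gata6+Itga6+ replicate 3, and at 0.214 with the brightness covariate. It was also lost with pseudocount 16 (0.0944), only 2 populations (0.132) and trend and robust moderation (0.0622). The same held with a block for the replicate number (0.0745) or the letter in the array names (0.0799). None of its 13 probe sets was called in this comparison, against 2 for Gata6+Itga6- over remaining basal cells. For Efnb1 in Gata6+Itga6- cells the call was lost in the alternatives run only without remaining basal replicate 2 (adjusted p = 0.0509).

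Of the 5 A-class ephrins, held to the membrane by a lipid anchor, Efna5 alone was called (of all genes, 12.1% were called in at least 1 comparison). On the log2 scale its levels stood at 4.86, 5.19 and 3.30 in Gata6+Itga6- cells, 4.77, 4.89 and 5.49 in Gata6+Itga6+ cells, 7.15, 7.22 and 7.82 in CD34+ cells and 2.49, 4.53 and 5.57 in remaining basal cells. The 3 CD34+ arrays were above all 9 others, and remaining basal cells spread the most (SD 1.6, against 0.37 in CD34+ cells). The 5.09-fold lower level of Efna5 in Gata6+Itga6+ cells than in CD34+ cells was not called (adjusted p = 0.112). Efna5 was 7.71-fold lower in Gata6+Itga6- cells than in CD34+ cells (adjusted p = 0.0294) and 9.21-fold higher in CD34+ cells than in remaining basal cells (adjusted p = 0.027). Both calls of Efna5 were lost without any 1 CD34+ array (adjusted p up to 0.0996 and 0.0992), the first also without Gata6+Itga6- replicate 1 or 3 (up to 0.107) and the second also without remaining basal replicate 2. The second call of Efna5 was also lost on the brightest probe set (adjusted p = 0.0585), with the brightness covariate (0.0568) and with only 2 populations (0.116).

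Among the Eph receptors, 1 of 9 EphA and 2 of 5 EphB genes were called, beside 12.1% of all genes called in at least 1 comparison. Epha4, a receptor that binds ephrins of both classes, had log2 levels of 5.88, 6.16 and 6.77 in Gata6+Itga6- cells, 4.96, 4.82 and 4.93 in Gata6+Itga6+ cells, 3.97, 4.09 and 4.68 in CD34+ cells and 4.04, 3.85 and 4.05 in remaining basal cells. Gata6+Itga6- cells were above the other 9 arrays. Epha4 was 4.88-fold higher in them than in remaining basal cells (log2 change 2.29 ± 0.23, adjusted p = 0.00023), with 15 of 19 probe sets called higher, and 4.06-fold higher than in CD34+ cells (2.02 ± 0.23, adjusted p = 0.000315). Over Gata6+Itga6+ cells it was 2.57-fold higher (adjusted p = 0.0117). None of its 19 probe sets was called in that comparison, and on the brightest the last difference of Epha4 was not called (log2 change 0.85, adjusted p = 0.152).

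Ephb2 and Ephb4 had smaller differences. Ephb2, an EphB receptor, had log2 levels of 3.31, 3.16 and 2.31 in Gata6+Itga6- cells, 1.98, 2.17 and 2.13 in Gata6+Itga6+ cells, 1.79, 2.14 and 1.92 in CD34+ cells and 2.06, 2.05 and 1.83 in remaining basal cells. Only in Gata6+Itga6- cells was its mean over the silent level, and 1 of their 3 arrays was not. It was at least 1.38-fold higher there than in CD34+ cells (adjusted p = 0.023) and than in remaining basal cells (adjusted p = 0.0381). The calls of Ephb2 were lost in 4 and 10 of the 12 fits without 1 array (adjusted p up to 0.0855 and 0.139, both without Gata6+Itga6- replicate 2), and its brightest probe set differed by 0.06 and 0.16 on the log2 scale.

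Ephb4, the main receptor of ephrin-B2, had log2 levels of 2.45, 2.75 and 2.20 in Gata6+Itga6- cells, 2.96, 2.68 and 2.63 in Gata6+Itga6+ cells, 3.56, 3.21 and 3.69 in CD34+ cells and 2.27, 2.66 and 2.95 in remaining basal cells. CD34+ cells were above the other 9 arrays. The difference of Ephb4 between CD34+ and Gata6+Itga6+ cells was not called. Ephb4 was 2.03-fold lower in Gata6+Itga6- cells than in CD34+ cells (adjusted p = 0.0116) and 1.82-fold higher in CD34+ cells than in remaining basal cells (adjusted p = 0.0398). The first of these calls of Ephb4 was lost without Gata6+Itga6- replicate 3 (adjusted p = 0.0505) and the second in 7 of 12 such fits (up to 0.143, without CD34+ replicate 3). Both calls of Ephb4 were lost on the brightest probe set (adjusted p = 0.267 and 0.314), and the second also with the brightness covariate (0.11) and with the replicate block (0.0813).

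Of the 7 class 3 semaphorins, which are secreted, 4 were called, beside 12.1% of all genes called in at least 1 comparison. Sema3e, which binds plexin-D1 without needing a neuropilin, had log2 levels of 2.78, 3.21 and 3.09 in Gata6+Itga6- cells, 3.74, 3.93 and 4.01 in Gata6+Itga6+ cells, 6.62, 6.93 and 7.34 in CD34+ cells and 1.74, 1.88 and 2.01 in remaining basal cells. No array of one population overlapped with another. The melanocyte markers also summed highest in CD34+ cells (70.2 to 76.4, above). Of those 7 markers only Mitf (mean 5.77) and Mlana (3.01) were over the silent level there, and Dct, Tyr and Tyrp1 were silent in every population. The part of melanocytes was not tested. Sema3e was at least 22.6-fold higher in CD34+ cells than in remaining basal cells (log2 change 5.09 ± 0.18, adjusted p = 1.33e-07, 22 of 24 probe sets called higher). It was 15.3-fold lower in Gata6+Itga6- cells than in CD34+ cells (-3.94 ± 0.18, adjusted p = 4.83e-07) and 8.38-fold lower in Gata6+Itga6+ cells than in CD34+ cells (-3.07 ± 0.18, adjusted p = 5.24e-06). Over remaining basal cells Sema3e was higher by at least 2.70-fold in Gata6+Itga6+ (adjusted p = 0.00042) and higher by at least 1.48-fold in Gata6+Itga6- cells (adjusted p = 0.00415). With pseudocount 16 the calls of Sema3e over remaining basal cells were lost in both Gata6+ populations (adjusted p = 0.057 and 0.327). The 1.82-fold lower level of Sema3e in Gata6+Itga6- cells than in Gata6+Itga6+ cells (adjusted p = 0.0309) lost its call in 5 of 12 fits without 1 array, with an adjusted p of up to 0.117 without Gata6+Itga6+ replicate 3.

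Sema3c, a ligand of the neuropilins, had log2 levels of 2.49, 2.42 and 2.47 in Gata6+Itga6- cells, 4.61, 4.47 and 4.57 in Gata6+Itga6+ cells, 4.91, 5.14 and 5.41 in CD34+ cells and 5.79, 5.88 and 6.67 in remaining basal cells. In Gata6+Itga6- cells it was at the silent level, and in the 3 integrin alpha 6-positive populations it was over it on all arrays. Sema3c was at least 12.6-fold lower in Gata6+Itga6- cells than in remaining basal cells (log2 change -3.66 ± 0.21, adjusted p = 5.4e-06, 18 of 24 probe sets called lower) and at least 6.45-fold lower than in CD34+ cells (-2.69 ± 0.21, adjusted p = 2.19e-05). Against Gata6+Itga6+ cells it was at least 4.25-fold lower (-2.09 ± 0.21, adjusted p = 0.000642). On its brightest probe set this last difference of Sema3c was not called (adjusted p = 0.133). Sema3c was also 2.96-fold lower in Gata6+Itga6+ (adjusted p = 0.00539) and 1.95-fold lower in CD34+ (adjusted p = 0.0267) than in remaining basal cells. The first of these calls of Sema3c was lost on the brightest probe set (adjusted p = 0.224) and the second without CD34+ replicate 1 (0.0886) or 2 (0.0757).

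Sema3d, another secreted member of the class, had log2 levels of 1.85, 1.86 and 1.69 in Gata6+Itga6- cells, 3.43, 4.39 and 3.27 in Gata6+Itga6+ cells, 1.68, 2.13 and 1.74 in CD34+ cells and 4.69, 3.70 and 5.13 in remaining basal cells. It was silent in Gata6+Itga6- and CD34+ cells on all arrays. Sema3d was at least 4.12-fold lower in Gata6+Itga6- (log2 change -2.71 ± 0.36, adjusted p = 0.00139) and in CD34+ cells (-2.66 ± 0.36, adjusted p = 0.00173) than in remaining basal cells. In Gata6+Itga6+ cells it was at least 2.35-fold higher than in CD34+ cells (adjusted p = 0.0164), and at least 2.35-fold lower in Gata6+Itga6- cells than in Gata6+Itga6+ cells (adjusted p = 0.0201). The last 2 calls of Sema3d were lost in 3 and 4 of 12 fits without 1 array, with adjusted p reaching 0.0617 when fitted without CD34+ replicate 1 and 0.0782 without Gata6+Itga6- replicate 3.

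Sema3f, a neuropilin ligand, had log2 levels of 3.01, 2.53 and 2.57 in Gata6+Itga6- cells, 3.08, 3.29 and 2.65 in Gata6+Itga6+ cells, 2.08, 2.36 and 2.38 in CD34+ cells and 3.22, 3.71 and 3.51 in remaining basal cells. CD34+ cells were below the other 9 arrays, but only their difference from remaining basal cells was called. Sema3f was at least 2.02-fold lower in CD34+ cells than in remaining basal cells (log2 change -1.20 ± 0.20, adjusted p = 0.00561), with 2 of 21 probe sets called lower. The other 3 class members, Sema3a, Sema3b and Sema3g, were silent in all populations.

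Of the 3 membrane-bound semaphorins called, Sema4g and Sema6a were highest in Gata6+Itga6- cells. Sema4g, of a class that binds plexin-B receptors, had log2 levels of 4.45, 4.56 and 4.69 in Gata6+Itga6- cells, 2.39, 2.69 and 2.64 in Gata6+Itga6+ cells, 2.35, 2.37 and 2.36 in CD34+ cells and 1.79, 1.95 and 2.18 in remaining basal cells. Gata6+Itga6- cells were far above the other 9 arrays. Sema4g was at least 4.30-fold higher in them than in CD34+ cells (log2 change 2.21 ± 0.12, adjusted p = 2e-06) and than in remaining basal cells (2.60 ± 0.12, adjusted p = 1.26e-06), and 3.99-fold higher than in Gata6+Itga6+ cells (2.00 ± 0.12, adjusted p = 3.78e-05). Of its 21 probe sets, all were higher in each of these comparisons, and 12, 12 and 7 were called. Over remaining basal cells Sema4g was higher by at least 1.08-fold in Gata6+Itga6+ cells (adjusted p = 0.0497), a call lost in 11 of 12 fits without 1 array, with an adjusted p of up to 0.178 without Gata6+Itga6+ replicate 3.

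Sema6a, a transmembrane ligand of plexin-A2 and plexin-A4, had log2 levels of 4.12, 4.56 and 4.32 in Gata6+Itga6- cells, 2.71, 2.87 and 3.53 in Gata6+Itga6+ cells, 2.55, 2.09 and 2.41 in CD34+ cells and 2.18, 1.85 and 1.91 in remaining basal cells. Gata6+Itga6- cells were above the other 9 arrays. Sema6a was at least 3.66-fold higher in them than in remaining basal cells (log2 change 2.36 ± 0.22, adjusted p = 0.000131, 12 of 25 probe sets called) and than in CD34+ cells (1.98 ± 0.22, adjusted p = 0.000235, 9 called). It was 2.46-fold higher in Gata6+Itga6- cells compared with Gata6+Itga6+ cells (adjusted p = 0.0111). The brightest probe set of Sema6a differed by 0.04, 0.37 and 0.31 on the log2 scale in these 3 comparisons and was not called. The higher level of Sema6a in Gata6+Itga6+ cells than in remaining basal cells (at least 1.49-fold, adjusted p = 0.0498) lost its call in 12 of 12 fits without 1 array, with an adjusted p of up to 0.19 without remaining basal replicate 2, and turned to -0.27 on the brightest probe set.

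Sema5a, a transmembrane semaphorin with thrombospondin repeats, had log2 levels of 2.42, 2.45 and 2.13 in Gata6+Itga6- cells, 3.08, 3.43 and 3.75 in Gata6+Itga6+ cells, 3.05, 2.90 and 3.65 in CD34+ cells and 3.01, 3.56 and 3.89 in remaining basal cells. It was silent in Gata6+Itga6- cells and over the silent level on the 9 arrays of the populations with integrin alpha 6. The differences of Gata6+Itga6- cells from Gata6+Itga6+ and CD34+ cells were not called for this gene. Sema5a was at least 2.03-fold lower in Gata6+Itga6- cells than in remaining basal cells (adjusted p = 0.033), a call lost in 6 of 12 fits without 1 array, with an adjusted p of up to 0.123 without Gata6+Itga6- replicate 3.

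**Figure D2:**
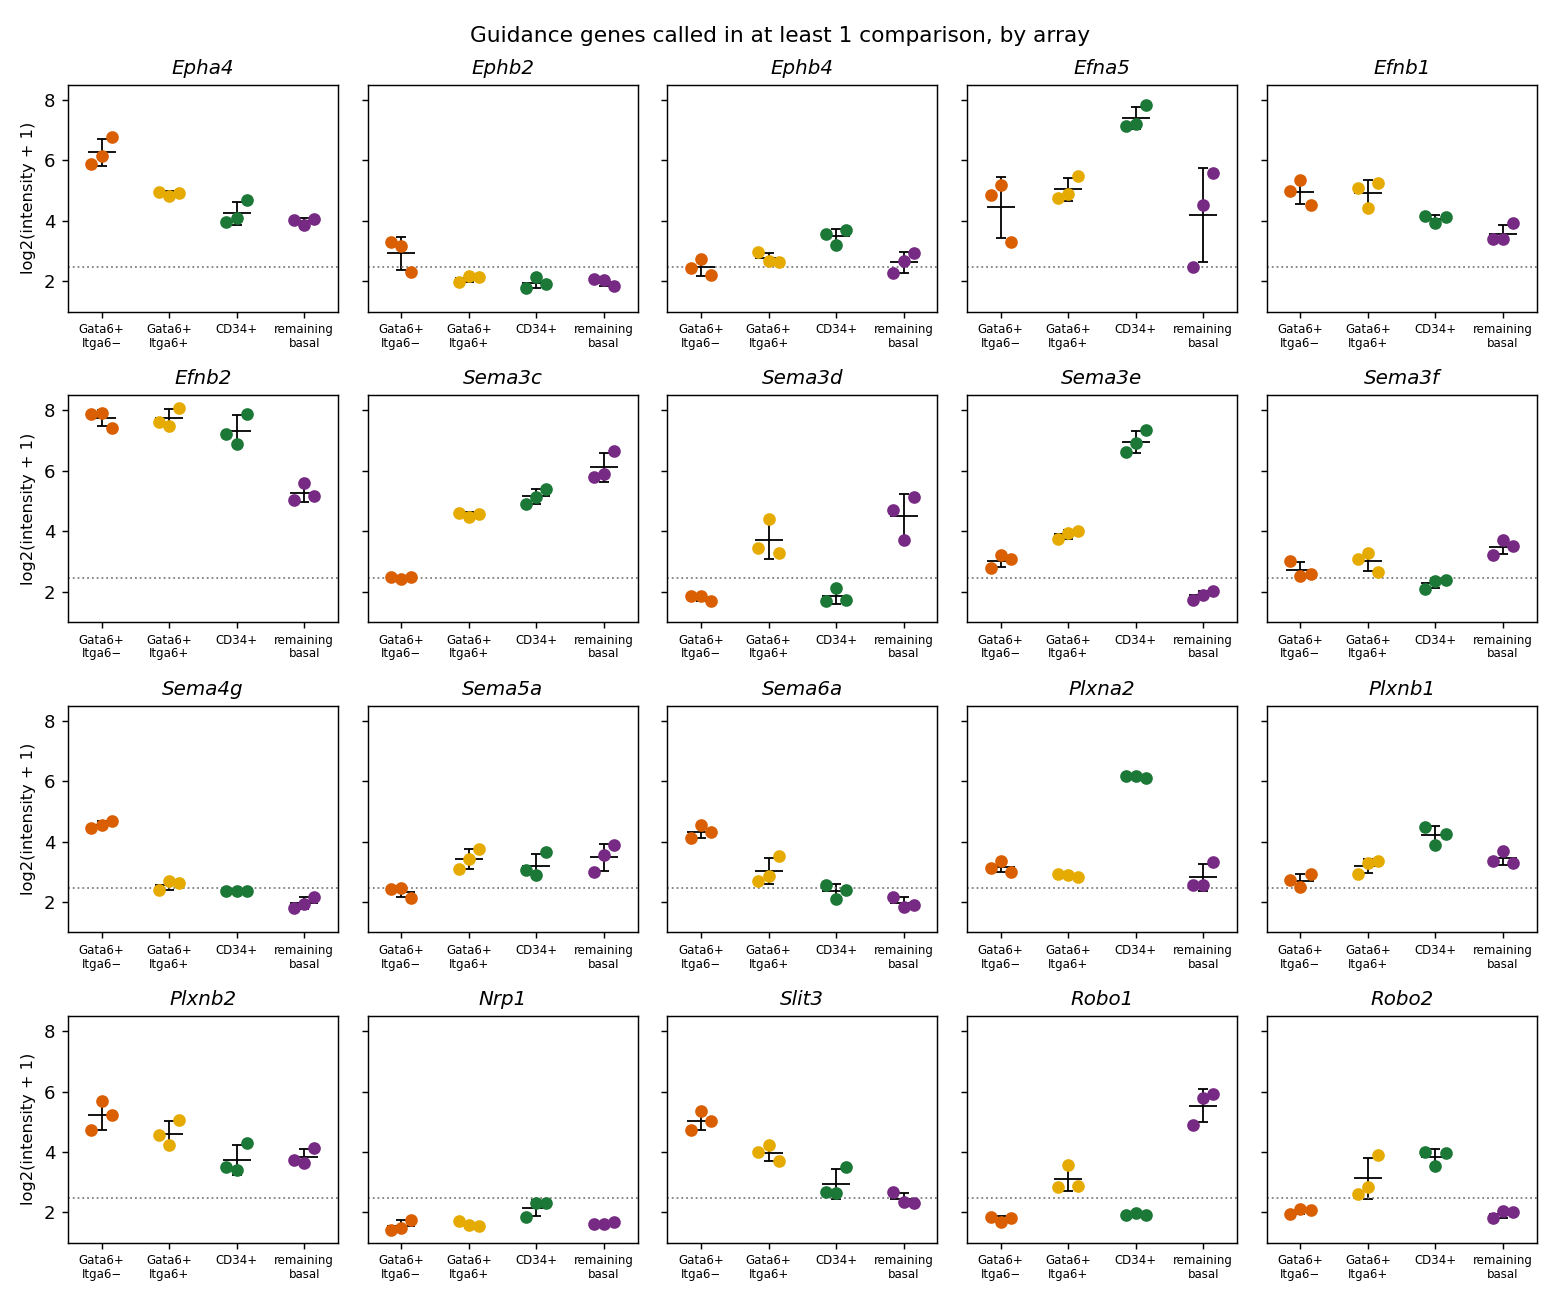
Log2(intensity + 1) on each of the 12 arrays (points) with the mean and SD (black bars) for the 20 genes called in at least 1 comparison, populations from left to right; the dotted line is the silent level of 2.46. Sema3c sits at that line in Gata6+Itga6- cells, and Sema3e falls into 4 separate groups with CD34+ cells at 6.62 to 7.34.

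Among the receptors of semaphorins, Plxna2 was highest in CD34+ cells. It encodes plexin-A2, and had log2 levels of 3.14, 3.35 and 3.00 in Gata6+Itga6- cells, 2.92, 2.90 and 2.82 in Gata6+Itga6+ cells, 6.16, 6.18 and 6.12 in CD34+ cells and 2.55, 2.58 and 3.33 in remaining basal cells. The CD34+ arrays agreed to within an SD of 0.03 and lay far above the others. Plxna2 was 10.1-fold higher in CD34+ cells than in remaining basal cells (log2 change 3.33 ± 0.19, adjusted p = 3.3e-06, 32 of 41 probe sets called higher). It was 7.94-fold lower in Gata6+Itga6- (-2.99 ± 0.19, adjusted p = 4.39e-06) and 9.68-fold lower in Gata6+Itga6+ cells (-3.28 ± 0.19, adjusted p = 4.1e-06) than in CD34+ cells. With pseudocount 16 the log2 changes of Plxna2 were 1.96, -1.84 and -1.95 in these 3 comparisons, all still called. Its ligand Sema6a had its highest mean in Gata6+Itga6- cells.

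The called plexin-B genes were highest in different populations, Plxnb1 in CD34+ and Plxnb2 in Gata6+Itga6- cells. Plxnb1, a receptor of Sema4d, had log2 levels of 2.73, 2.49 and 2.92 in Gata6+Itga6- cells, 2.94, 3.29 and 3.36 in Gata6+Itga6+ cells, 4.48, 3.89 and 4.26 in CD34+ cells and 3.37, 3.68 and 3.28 in remaining basal cells. CD34+ cells were above the other 9 arrays. Plxnb1 was 2.83-fold lower in Gata6+Itga6- (adjusted p = 0.000584) and 2.02-fold lower in Gata6+Itga6+ cells (adjusted p = 0.0122) than in CD34+ cells. The second of these calls of Plxnb1 was lost in a fit of only these 2 populations (adjusted p = 0.0572). The 1.70-fold higher level of Plxnb1 in CD34+ cells than in remaining basal cells (adjusted p = 0.0458) lost its call in 8 of 12 fits without 1 array, with an adjusted p of up to 0.136 without CD34+ replicate 3.

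Plxnb2, a receptor of class 4 semaphorins, had log2 levels of 4.74, 5.69 and 5.22 in Gata6+Itga6- cells, 4.55, 4.22 and 5.06 in Gata6+Itga6+ cells, 3.49, 3.40 and 4.30 in CD34+ cells and 3.73, 3.62 and 4.13 in remaining basal cells. Gata6+Itga6- cells lay above both populations without the reporter and overlapped with Gata6+Itga6+ cells. Plxnb2 was 2.79-fold higher in Gata6+Itga6- cells compared with CD34+ cells (adjusted p = 0.0158) and 2.62-fold higher than in remaining basal cells (adjusted p = 0.0308). Both calls of Plxnb2 were lost in 4 of 12 fits without 1 array (adjusted p reaching 0.0606 when fitted without Gata6+Itga6- replicate 2 or CD34+ replicate 2, and 0.115, without Gata6+Itga6- replicate 2). On the brightest probe set the log2 changes of Plxnb2 were 0.90 over CD34+ cells and 0.31 over remaining basal cells, and the second was not called there (adjusted p = 0.567) or with pseudocount 16 (0.0502).

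Nrp1, a neuropilin that class 3 semaphorins bind, was silent in all populations. On the log2 scale its levels stood at 1.43, 1.49 and 1.76 in Gata6+Itga6- cells, 1.70, 1.59 and 1.55 in Gata6+Itga6+ cells, 1.84, 2.30 and 2.31 in CD34+ cells and 1.61, 1.62 and 1.69 in remaining basal cells. The call between Gata6+Itga6- and CD34+ cells (log2 change -0.59 ± 0.14, adjusted p = 0.028) is therefore one between silent levels, with no fold given. The call of Nrp1 was lost in 4 of 12 fits without 1 array, with an adjusted p of up to 0.105 without Gata6+Itga6- replicate 1. Plxnd1, the plexin that Sema3e binds, was silent as well, with means of 1.86, 1.91, 1.92 and 2.05 in Gata6+Itga6-, Gata6+Itga6+, CD34+ and remaining basal cells, and was not called (smallest adjusted p = 0.556).

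Slit3, a secreted ligand of Robo receptors, was highest in Gata6+ cells. On the log2 scale its levels stood at 4.72, 5.36 and 5.04 in Gata6+Itga6- cells, 4.00, 4.23 and 3.69 in Gata6+Itga6+ cells, 2.67, 2.64 and 3.51 in CD34+ cells and 2.67, 2.35 and 2.31 in remaining basal cells. The Gata6+Itga6- arrays were above the rest, though the difference from Gata6+Itga6+ cells was not called, and the Gata6+Itga6+ arrays above those of both reporter-negative populations. Slit3 was 4.28-fold higher in Gata6+Itga6- cells compared with CD34+ cells (log2 change 2.10 ± 0.25, adjusted p = 0.000459, 15 of 39 probe sets called) and at least 5.97-fold higher than in remaining basal cells (2.59 ± 0.25, adjusted p = 0.000184, 17 called). On the brightest probe set the difference of Slit3 from remaining basal cells was not called (log2 change 1.31, adjusted p = 0.12). In Gata6+Itga6+ cells Slit3 was at least 2.85-fold higher than in remaining basal cells (adjusted p = 0.0172) and 2.05-fold higher than in CD34+ cells (adjusted p = 0.0494), calls lost in 3 and 11 of 12 fits without 1 array (adjusted p reaching 0.0794 when fitted without remaining basal replicate 2, and 0.161, without CD34+ replicate 2).

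Of the 4 Robo receptors, Robo1 and Robo2 were called, beside 12.1% of all genes called in at least 1 comparison. Robo3 and Robo4 were silent in all populations (smallest adjusted p = 0.853 and 0.501). Robo1 had log2 levels of 1.85, 1.67 and 1.82 in Gata6+Itga6- cells, 2.85, 3.57 and 2.89 in Gata6+Itga6+ cells, 1.90, 1.97 and 1.91 in CD34+ cells and 4.90, 5.78 and 5.91 in remaining basal cells. It was silent in Gata6+Itga6- and CD34+ cells, and the remaining basal arrays were above the other 9. Robo1 was at least 8.38-fold lower in Gata6+Itga6- (log2 change -3.75 ± 0.26, adjusted p = 1.74e-05) and in CD34+ cells (-3.60 ± 0.26, adjusted p = 1.76e-05) than in remaining basal cells, with 20 and 17 of 24 probe sets called lower. In Gata6+Itga6+ cells Robo1 was 5.37-fold lower than in remaining basal cells (adjusted p = 0.00136) and at least 1.56-fold higher than in CD34+ cells (adjusted p = 0.0296), and in Gata6+Itga6- cells it was at least 1.56-fold lower than in Gata6+Itga6+ cells (adjusted p = 0.0233). The call of Robo1 between Gata6+Itga6+ and remaining basal cells was lost on the brightest probe set (adjusted p = 0.326). The last 2 calls of Robo1 were lost in 5 of 12 fits without 1 array (adjusted p reaching 0.0949 when fitted without Gata6+Itga6+ replicate 2, and 0.074, without Gata6+Itga6- replicate 3).

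Robo2 had log2 levels of 1.94, 2.10 and 2.07 in Gata6+Itga6- cells, 2.61, 2.85 and 3.91 in Gata6+Itga6+ cells, 4.00, 3.55 and 3.98 in CD34+ cells and 1.81, 2.05 and 2.02 in remaining basal cells. It was silent on all 3 arrays of both Gata6+Itga6- and remaining basal cells, and Gata6+Itga6+ cells overlapped with CD34+ cells. Robo2 was at least 2.60-fold lower in Gata6+Itga6- cells than in CD34+ cells (log2 change -1.81 ± 0.28, adjusted p = 0.00246) and at least 2.60-fold higher in CD34+ cells than in remaining basal cells (1.88 ± 0.28, adjusted p = 0.00294). Of its 33 probe sets, 13 were called lower in the first comparison and 11 higher in the second.

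**Figure D3:**
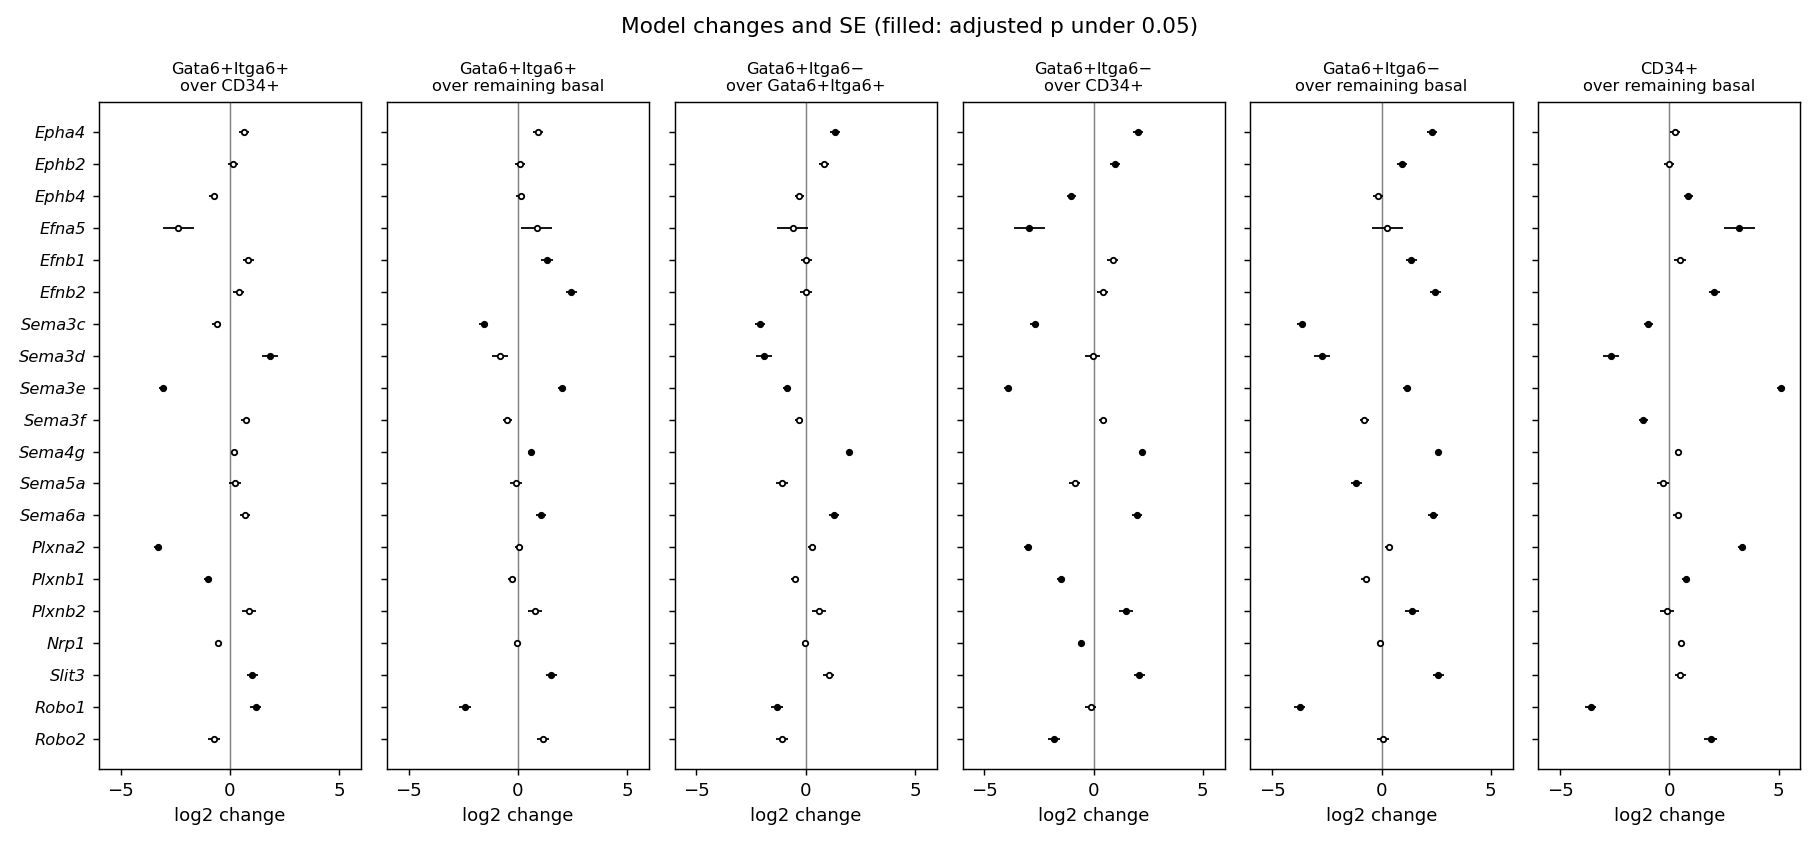
Log2 change (points) with its SE (lines) in the 6 comparisons, one panel each, for the 20 called genes; filled points have an adjusted p under 0.05. The largest change drawn is Sema3e in CD34+ over remaining basal cells, at 5.09, and Robo1 stands opposite it in the same panel at -3.60.

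Netrins and Unc5 receptors had no called gene, 0 of 4 and 0 of 4. With 12.1% of all genes called in at least 1 comparison, 0 of 4 says little about either family. Unc5b came nearest, with means of 3.20, 2.77, 2.80 and 2.72 in Gata6+Itga6-, Gata6+Itga6+, CD34+ and remaining basal cells and a smallest adjusted p of 0.0902. Ntn5 was the netrin with the smallest adjusted p (0.261; means 2.08, 1.93, 2.04 and 1.81 in that order), and it was silent. The class 7 semaphorin Sema7a, held by a lipid anchor, was silent too (means 1.69, 1.54, 1.69 and 1.72; smallest adjusted p = 0.513). Plexin-C and plexin-D genes had no called member.

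Genes over the silent level in every population but never called numbered 10: Efna1, Efna3, Efna4, Epha1, Epha2, Ephb3, Ephb6, Plxna1, Sema4b and Unc5b. Epha1, an EphA receptor of epithelia, had means of 4.31, 3.93, 4.03 and 3.40 in Gata6+Itga6-, Gata6+Itga6+, CD34+ and remaining basal cells (smallest adjusted p = 0.31). Plxna1, a receptor of class 3 and class 6 semaphorins, had 4.63, 4.84, 4.30 and 4.39 in that order (smallest adjusted p = 0.276). A p over the threshold does not show that these levels are equal.

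Single probe sets were also fitted, over all 221205 with 1 gene. Of the 1520 guidance probe sets, 161 (10.6%) were called for Gata6+Itga6- over CD34+ cells, where 3.98% of all probe sets were, and 139 (9.14%) for Gata6+Itga6- over remaining basal cells, where 2.38% were. For CD34+ over remaining basal cells 124 (8.16%) were called, beside 2.50% of all. For Gata6+Itga6+ over CD34+ cells the number was 65 (4.28%; 1.86% of all), for Gata6+Itga6- over Gata6+Itga6+ cells 40 (2.63%; 0.933% of all) and for Gata6+Itga6+ over remaining basal cells 36 (2.37%; 0.528% of all). Probe sets of one gene share their RNA and are not replicates. In total 30 genes had a called probe set in some comparison: the 20 called as genes and Efna1, Efna3, Epha1, Ephb6, Ntn4, Plxna1, Robo4, Sema4a, Sema4c and Unc5b. Of these last 10, Robo4 and Sema4c had 1 called test each, Efna1, Sema4a and Unc5b 2 each, and the others 3 to 5. A gene with more probe sets has more tests, and the share of all genes with a called probe set was not computed.

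**Figure D4:**
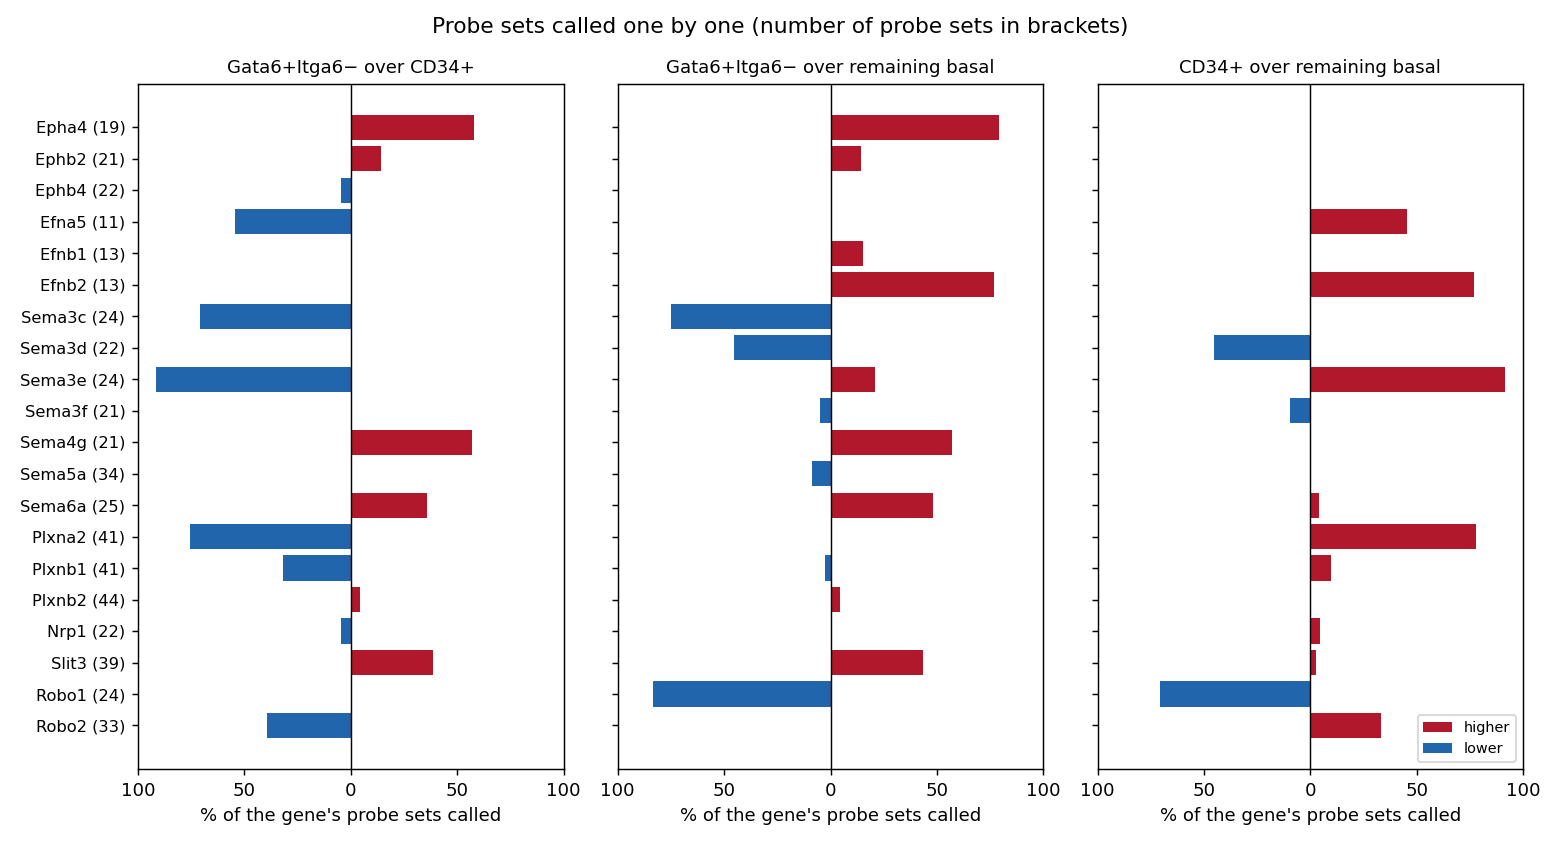
Share of each gene's probe sets called one by one, in percent, for the 20 called genes (number of probe sets in brackets), lower to the left of 0 and higher to the right, for Gata6+Itga6- over CD34+, Gata6+Itga6- over remaining basal and CD34+ over remaining basal cells. Sema3e has 22 of 24 and Plxna2 32 of 41 probe sets called higher in CD34+ over remaining basal cells.

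Genes that act with these receptors were followed in 4 lists. The lists were chosen with earlier results of these data known, so their called shares are no test of an excess over all genes. Of 20 Eph partners, 2 were called higher and 3 called lower for Gata6+Itga6- over CD34+ cells (25.0%; 7.96% of all genes), 1 and 0 for Gata6+Itga6- over remaining basal cells (5.0%; 5.11%) and 0 and 1 for Gata6+Itga6- over Gata6+Itga6+ cells (5.0%; 3.18%). For Gata6+Itga6+ cells the counts were 1 and 1 over CD34+ cells (10.0%; 4.59%) and none over remaining basal cells (1.36% of all genes), and for CD34+ over remaining basal cells 1 and 1 (10.0%; 5.00%). Grip1, a PDZ scaffold of ephrin-B, was at least 1.26-fold higher in CD34+ cells than in remaining basal cells (adjusted p = 0.0011). Sdcbp, another PDZ scaffold, was 7.03-fold lower in Gata6+Itga6- cells than in CD34+ cells (adjusted p = 0.0024). Kalrn, a guanine nucleotide exchange factor that acts below EphB receptors in neurons, was higher by at least 1.01-fold in Gata6+Itga6- cells than in remaining basal cells (adjusted p = 0.0088).

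Of 32 semaphorin partners, 1 was called higher and 7 called lower for Gata6+Itga6- over CD34+ cells (25.0%; 7.96% of all genes), 2 and 2 for Gata6+Itga6- over remaining basal cells (12.5%; 5.11%) and 0 and 2 for Gata6+Itga6- over Gata6+Itga6+ cells (6.25%; 3.18%). For Gata6+Itga6+ cells the counts were 0 and 2 over CD34+ cells (6.25%; 4.59%) and 1 and 0 over remaining basal cells (3.12%; 1.36%), and for CD34+ over remaining basal cells 2 and 0 (6.25%; 5.00%). Farp1, a FERM-domain exchange factor that acts with plexin-A, was at least 3.01-fold higher in CD34+ cells than in remaining basal cells (adjusted p = 4.4e-05). Itgb1, integrin beta 1, was 16.5-fold lower in Gata6+Itga6- cells than in CD34+ cells (log2 change -4.04, adjusted p = 7.79e-05). It was also 11.8-fold lower than in Gata6+Itga6+ cells (adjusted p = 0.000891) and 9.83-fold lower than in remaining basal cells (adjusted p = 0.00054). The part of the sort on integrin alpha 6 in these differences was not tested. Met, the receptor of hepatocyte growth factor that associates with plexin-B1, was at least 5.00-fold lower in Gata6+Itga6- cells than in CD34+ cells (adjusted p = 0.000295). Met was also lower there than in Gata6+Itga6+ cells (at least 4.05-fold, adjusted p = 0.00292) and remaining basal cells (at least 3.44-fold, adjusted p = 0.00212).

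Of 17 Slit and Robo partners, 0 were called higher and 3 called lower for Gata6+Itga6- over CD34+ cells (17.6%; 7.96% of all genes), 3 and 1 for CD34+ over remaining basal cells (23.5%; 5.00%), 1 and 0 for Gata6+Itga6+ over CD34+ cells (5.88%; 4.59%), and none in the other 3 comparisons (1.36% to 5.11% of all genes). Srgap2, a GTPase-activating protein recruited by Robo, was 2.50-fold lower in CD34+ cells than in remaining basal cells (adjusted p = 0.0108), Flrt2, a membrane protein with leucine-rich repeats, was 3.44-fold higher in CD34+ cells than in remaining basal cells (adjusted p = 0.0156), and Srgap1 was called between silent levels (means 1.89 in Gata6+Itga6- and 2.36 in CD34+ cells, adjusted p = 0.0168). Of 22 netrin partners, 0 were called higher and 5 called lower for Gata6+Itga6- over CD34+ cells (22.7%; 7.96% of all genes), 1 and 3 for Gata6+Itga6- over remaining basal cells (18.2%; 5.11%) and 0 and 2 for Gata6+Itga6- over Gata6+Itga6+ cells (9.09%; 3.18%). For Gata6+Itga6+ cells the counts were 0 and 2 over CD34+ cells (9.09%; 4.59%) and none over remaining basal cells (1.36% of all genes), and for CD34+ over remaining basal cells 4 and 0 (18.2%; 5.00%). The netrin list contains Itga6, a gene of the sort. Itga6 was among the genes called lower in Gata6+Itga6- cells than in Gata6+Itga6+ cells and than in remaining basal cells. The counts and shares of these comparisons are therefore not independent of the sort. The other call against Gata6+Itga6+ cells was Itgb4. The other genes called lower against remaining basal cells were the integrin genes Itgb4 and Itga3. The part of the sort in these calls was not tested. Itgb4, the partner of Itga6, was 5.34-fold lower in Gata6+Itga6- cells than in CD34+ cells (adjusted p = 0.000882). Enah and Fyn, an actin regulator and a kinase below Dcc, were higher in CD34+ cells than in remaining basal cells, by 3.25-fold (adjusted p = 0.00199) and at least 1.40-fold (adjusted p = 0.00254).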

How the data were processed

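Back skin epidermal cells were sorted into 4 populations of 3 replicates, and RNA was amplified and hybridized to Affymetrix mouse exon arrays, per the labels' protocols. The deposited values are intensities of 235932 probe sets, made by the authors with RMA in Affymetrix Power Tools on mm9, per the submitters' processing notes. Their scale is not stated and was read as linear (array medians 3.97 to 4.57, maxima 2172 to 2953), so every log2 level rests on that reading. Probe sets with 1 gene symbol (221205) were used, 1684 with several and 13043 with none were not. Symbols were updated through RefSeq of GRCm38.p6, which served only for names and promoters (15377 current, 2489 updated, 42 kept). A gene's level is the median log2(intensity + 1) of its probe sets; the added 1 shrinks folds of dim genes. The number of arrays limits the precision.

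The model was a mean for each population over 12 arrays (limma 3.58.1, R 4.3.3), and p-values were adjusted by Benjamini-Hochberg over 17853 genes, for 6 comparisons. The procedure was tested on simulated data. An exact permutation test of 3 against 3 cannot go below p = 0.1 and was not used. The genes named are every guidance gene called in a comparison, the nearest gene of each family with none called, up to 3 called genes of each partner list, and the sort and marker genes; other genes were named after their values were seen, as was the fit of single probe sets chosen. The members and lists were chosen with earlier results of these data known. Same-numbered arrays of different populations correlated at -0.144 to 0.279 in their deviations (18 pairs, median 0.009). Arrays with other numbers correlated at -0.24 to 0.269 (36 pairs, median -0.006), so the numbers were not taken to pair them. The array names also hold a letter, A, C or D, and each letter had an array of every population. Replicates 1 and 2 had letters C and A in CD34+ cells but A and C elsewhere. The median correlation was 0.047 for pairs with the same letter and -0.01 for the others. Rhod, Ntng2, Tcf7l1, Flg and Trac were among the listed genes not analysed here. Alternatives were other gene summaries, pseudocount 16, no dim genes, quantile normalization, a brightness covariate, fits of 2 populations, blocks, other moderation and each array left out.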

Additional observations from a re-analysis of the deposited data

How the results depend on the processing

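The 59 called changes were recomputed under the alternatives in 1297 values: 1077 kept direction and call, 219 lost the call and 1 turned round, which was Sema6a in Gata6+Itga6+ over remaining basal cells at -0.27 on the brightest probe set. The brightest probe set lost 22 calls, the fit of only 2 populations 18 and pseudocount 16 lost 15; 25 changes kept their call in every alternative run. Pseudocount 16 shrank 48 of the 59 changes by over 1.5 times, and on the brightest probe set 13 shrank and 11 grew by that much. The counts of called guidance genes stayed within 1.5 times of those reported except as follows. The 6 of Gata6+Itga6+ over CD34+ cells became 12 with the mean of probe sets, where 7.28% of all genes were called against 4.59% in the reported fit. The 8 of Gata6+Itga6+ over remaining basal cells became 5 with the brightest probe set (1.07% of all genes), 3 with pseudocount 16 (0.846%), 4 with the brightness covariate (0.711%), 4 with only 2 populations (0.616%) and 5 with trend and robust moderation (1.18%). In the reported fit 1.36% of all genes were called. The 7 of Gata6+Itga6- over Gata6+Itga6+ cells became 11 with the mean of probe sets (5.57% of all genes) and 4 with the brightness covariate (2.07%), against 3.18% in the reported fit. The 11 of CD34+ over remaining basal cells became 7 with only 2 populations, where 3.20% of all genes were called against 5.00% in the reported fit. Leaving out each array in turn gave 4 to 6 calls for Gata6+Itga6+ over CD34+ cells, 4 to 7 for Gata6+Itga6+ over remaining basal cells, 4 to 9 for Gata6+Itga6- over Gata6+Itga6+ cells, 11 to 15 for Gata6+Itga6- over CD34+ cells, 9 to 14 for Gata6+Itga6- over remaining basal cells and 8 to 12 for CD34+ over remaining basal cells. The shares of all genes called in the same fits were 3.18% to 4.90%, 0.734% to 1.92%, 1.60% to 3.51%, 5.91% to 8.40%, 3.61% to 5.19% and 3.77% to 5.07% in that order. The cause of these shifts was not tested, and neither was the part of the fewer arrays in the fits of 2 populations.

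With a replicate block, which the check of the numbers did not call for, the counts were 5, 6, 7, 14, 13 and 9 in the order Gata6+Itga6+ over CD34+, Gata6+Itga6+ over remaining basal, Gata6+Itga6- over Gata6+Itga6+, Gata6+Itga6- over CD34+, Gata6+Itga6- over remaining basal and CD34+ over remaining basal cells. Of all genes, 4.49%, 1.14%, 2.89%, 7.77%, 4.96% and 4.96% were called with this block in the same order. With the letter in the array names as the block 53 of the 59 calls were kept. The counts were then 5, 6, 7, 15, 14 and 9 in the same order. Of all genes, 4.30%, 1.17%, 2.91%, 7.68%, 4.85% and 4.91% were called. The number after the letter was 4 for Gata6+Itga6-, 1 for Gata6+Itga6+, 3 for CD34+ and 2 for remaining basal arrays. It cannot be told apart from the population. Leaving out the dimmest genes kept a value for 58 of the 59 changes.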
